A study of Homo sapiens with 12 samples.

Results

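Blocking the nuclear export receptor XPO1 with KPT-330 alone was examined in 6 of the study's 12 RNA sequencing libraries: 3 of JEKO-1 cells given KPT-330 for 48 h and 3 of JEKO-1 cells given only DMSO, the solvent of KPT-330. JEKO-1 is an established cell line of mantle cell lymphoma, a B cell tumour, and every library came from that 1 line. The libraries were taken by the treatment and replicate number in their labels, so no measured value chose them. The other 6 libraries, from the same line at 48 h, are 3 with choline salicylate (CS) and 3 with KPT-330 and CS together (KPT-330+CS); KPT-330+CS against CS gives the effect of KPT-330 in libraries that share no sample with KPT-330 against DMSO. The dose of KPT-330 in these cultures is not given in the labels, which state a range for the study as a whole, and nothing says that replicates came from separate cultures. The spread on which the p-values rest is that among these libraries, and it may be technical only. Of 64253 genes in the count table, 19460 had enough reads to be tested.

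XPO1, also called CRM1, carries proteins with a leucine-rich export signal, and some RNAs through adaptor proteins, from the nucleus to the cytoplasm with RanGTP. Its cargo includes tumour suppressors, cell cycle inhibitors, inhibitors of NF-kappaB and ribosomal precursors. KPT-330, known as selinexor, binds a cysteine in the cargo groove of XPO1 and blocks loading, so that cargo builds up in the nucleus. Blood cancers, mantle cell lymphoma among them, are the tumours in which XPO1 inhibitors are best known.

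With KPT-330, 4815 genes (24.7% of those tested) were higher and 4631 (23.8%) lower than with DMSO at an adjusted p of 0.05 or less, 48.5% in all. The p-values came from a quasi-likelihood fit in edgeR and were adjusted by Benjamini-Hochberg over all 19460 genes. At the study's own limit, which adds an absolute log2 fold change over 2, 523 genes (2.69%) were higher and 65 (0.334%) lower, 3.02% in all. A stricter filter on low counts left 213 and 24 of these, and with no filter 118 were lower beyond the limit. Large changes were thus mostly upward, while calls as such were nearly even in direction. That even split depends on the scaling between libraries: with library size alone in place of TMM (trimmed mean of M-values) factors, 6651 genes were higher and 2905 lower, 69.6% of calls higher against 51.0%, and the median log2 fold change of all genes was 0.20 in place of 0.04. In KPT-330+CS against CS, 5081 genes (26.1%) were higher and 4216 (21.7%) lower, 47.8% in all. Of the genes higher with KPT-330 alone, 3087 (64.1%) were higher there too and 101 were lower. Of those lower, 2882 (62.2%) were lower there too and 129 higher.

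The share of calls in each direction differed by level in DMSO, a level that the same comparison uses. The unit of level is CPM, a gene's count brought to one common library total after TMM scaling, which takes no account of transcript length and so is not compared between genes. Among the 2321 genes over 100 CPM in DMSO, 61.7% were lower and 7.67% higher with KPT-330, and the median log2 fold change was -0.24. Among the 4826 genes at 1 to 10 CPM the order was the other way, with 33.6% higher and 15.4% lower. The 602 genes tested below 0.1 CPM in DMSO had passed the filter on low counts largely through other groups, so their 63.0% higher and 0 lower is fixed in part by the filter. Group levels of a bulk sample are relative to each library's total: less of an RNA in each cell and fewer cells that hold it cannot be told apart.

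**Figure D1:**
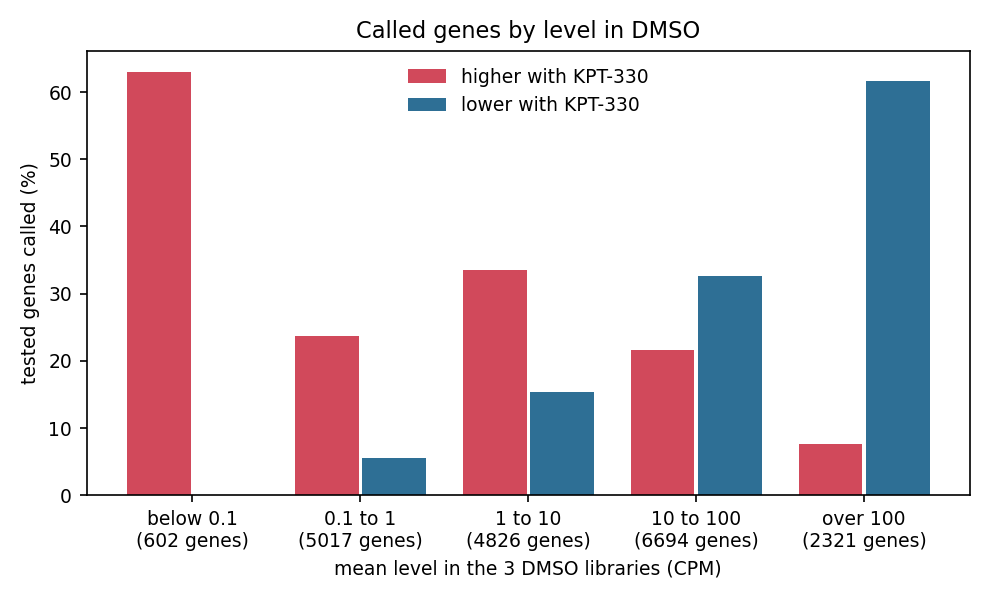
Share of tested genes called higher or lower with KPT-330 against DMSO (vertical axis, % of genes at an adjusted p of 0.05 or less), by mean level in the 3 DMSO libraries (horizontal axis, CPM, with the number of genes). Lower calls make up 61.7% of genes over 100 CPM and 5.58% of genes at 0.1 to 1 CPM, and the lowest class holds no lower call.

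The 6 libraries were deep and of B cell type. The deposited counts summed to 44144749 to 50939785 in the DMSO libraries and to 48439949 to 54865536 in the KPT-330 libraries, and 27053 to 27375 genes had a count with KPT-330 against 25214 to 26075 with DMSO. The KPT-330 libraries were close to each other, with a biological coefficient of variation of 2.881% against 15.47% within DMSO. Levels followed gene GC content differently in the 2 groups: the slope per 10 percentage points of GC was 0.20 to 0.23 on the log2 scale in the KPT-330 libraries and -0.31 to 0.09 in the DMSO libraries, and its part in the results was not tested beyond the GC correction given beside them. The B cell genes MS4A1 (the CD20 antigen, at 1002, 1146 and 1271 CPM in DMSO), CD79A, CD79B and PAX5 were present in every library, and so were the mantle cell lymphoma genes CCND1 and SOX11. XPO1 itself was at 750, 863 and 923 CPM with DMSO and at 1556, 1619 and 1551 CPM with KPT-330, a log2 fold change of 0.90 ± 0.07 (SE; adjusted p = 7.64e-07). All 3 KPT-330 libraries were above all 3 DMSO libraries, and the log2 fold change in KPT-330+CS against CS was 0.78.

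Genes that were close to silent in DMSO were picked out by a rule: a mean under 0.1 CPM with DMSO, a mean of at least 0.5 CPM with KPT-330, an adjusted p of 0.05 or less and no overlap between the libraries. It took 79 genes (0.406% of those tested): 50 protein coding, 12 lincRNAs, 9 antisense RNAs and 8 of other classes, on 22 chromosomes. Because the rule used KPT-330 against DMSO, the values there only describe the genes, and KPT-330+CS against CS gives values in other libraries. There, 61 of the 79 were higher, 0 lower and 18 were not called. Of the 602 genes tested below 0.1 CPM in DMSO, 53.3% were higher and 0.166% lower there, so genes this low in untreated cells could hardly be lower. The rule took 56 genes after GC correction, 60 with DMSO replicate 1 as the sole DMSO library and 22 with the stricter filter. The gene just inside the level limit, AC104809.4, had a mean of 0.508 CPM with KPT-330, and the one just outside, RASA3-IT1, had 0.489 CPM. The mirror rule, with the groups exchanged, took 8 genes (0.0411%), 4 without KPT-330 replicate 1 and 1 with the stricter filter.

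Promoters of some of these genes are shown because they differ widely in CpG content, the feature by which promoters are often classed. From the RefSeq table of build GRCh38.p14, 300 bases (250 before to 50 after a start) are printed 5' to 3' on the gene's strand, with each CG in capitals: NGB and KDF1 with many, ACTG2 with few, and, from the mirror rule, FCRL4 with none. NGB lies on the minus strand at chr14:77271157-77271456, KDF1 on the minus strand at chr1:26960419-26960718, ACTG2 on the plus strand at chr2:73892758-73893057 and FCRL4 on the minus strand at chr1:157598036-157598335.
NGB: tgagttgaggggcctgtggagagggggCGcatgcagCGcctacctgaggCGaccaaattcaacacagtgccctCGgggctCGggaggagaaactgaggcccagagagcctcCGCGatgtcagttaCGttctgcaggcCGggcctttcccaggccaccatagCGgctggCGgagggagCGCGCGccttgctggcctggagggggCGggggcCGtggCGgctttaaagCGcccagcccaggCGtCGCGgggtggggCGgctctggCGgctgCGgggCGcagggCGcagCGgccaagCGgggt
KDF1: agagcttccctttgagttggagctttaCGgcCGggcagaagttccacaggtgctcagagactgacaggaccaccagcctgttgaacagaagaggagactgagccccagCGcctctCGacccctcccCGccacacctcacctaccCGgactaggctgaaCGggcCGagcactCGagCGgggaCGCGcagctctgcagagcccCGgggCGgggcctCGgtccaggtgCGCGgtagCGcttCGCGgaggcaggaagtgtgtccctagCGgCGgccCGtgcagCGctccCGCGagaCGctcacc
ACTG2: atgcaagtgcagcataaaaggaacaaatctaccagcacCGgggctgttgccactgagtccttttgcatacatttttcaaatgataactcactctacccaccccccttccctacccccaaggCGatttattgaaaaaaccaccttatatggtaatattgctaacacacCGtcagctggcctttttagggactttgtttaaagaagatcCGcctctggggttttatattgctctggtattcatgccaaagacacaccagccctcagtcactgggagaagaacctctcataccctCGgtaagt
FCRL4: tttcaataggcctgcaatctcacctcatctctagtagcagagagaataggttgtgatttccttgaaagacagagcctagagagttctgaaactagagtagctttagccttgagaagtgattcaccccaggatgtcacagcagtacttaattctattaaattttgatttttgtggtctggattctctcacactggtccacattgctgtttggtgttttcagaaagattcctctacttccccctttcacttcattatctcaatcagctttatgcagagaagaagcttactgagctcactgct
The ratio of observed to expected CpG was 0.763 for NGB, 0.787 for KDF1 and 0.335 for ACTG2. Of the 50 protein coding genes switched on, 33 had a promoter in the table, and their median ratio was 0.579, against 0.812 for all tested protein coding genes and 0.560 for those tested below 0.1 CPM in DMSO. The median GC content of the transcripts was 59.1% for the 79 genes, 52.6% for all genes tested below 0.1 CPM in DMSO and 47.7% for all tested genes. The forkhead motif GTAAACA or its reverse complement TGTTTAC lay in the promoter of 1 of 45 switched-on genes in the table (2.22%), against 3.61% of all tested genes.

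NGFR, the p75 neurotrophin receptor, had the highest mean CPM with KPT-330 of the switched-on genes other than receptor segments and clone-based names, a ranking not corrected for length. It had 3, 0 and 4 reads in the DMSO libraries and 532, 558 and 639 with KPT-330 (10.1, 11.1 and 11.2 CPM). With CS it was at 0.0230, 0.0827 and 0.206 CPM and with KPT-330+CS at 30.3, 26.1 and 21.0 CPM, so the gene was near silent in all 6 libraries without KPT-330 and on in all 6 with it. Next to each other on chromosome 16, 2607 bases apart and on the same strand, lie GPR56 and GPR97, 2 adhesion G protein-coupled receptors now named ADGRG1 and ADGRG3. GPR97 had no read in any DMSO or CS library, and 308, 218 and 236 reads with KPT-330. Against the limit that a count of 0 allows (3 reads over the 3 DMSO libraries) it was at least 207-fold higher with KPT-330. GPR56 had 1, 5 and 4 reads with DMSO and 97, 99 and 104 with KPT-330, and rose in KPT-330+CS against CS as well (log2 fold change 3.79, adjusted p = 1.63e-06). Reads from transcripts that ran from one gene into the other were not looked for here.

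The other named switched-on genes belong to unlike tissues. NGB encodes neuroglobin, an oxygen-binding protein of neurons; it had 2, 1 and 0 reads with DMSO and 103, 104 and 167 with KPT-330, a ratio corrected for library size of 102 (exact 95% counting interval 34.6 to 496, counting error only). ACTG2 encodes the gamma actin of gut smooth muscle and had 2, 0 and 2 reads with DMSO against 72, 52 and 70 with KPT-330. APOB, the core protein of the lipoproteins that liver and gut secrete, stood at 0.0616, 0.122 and 0.0485 CPM with DMSO and 0.914, 1.80 and 1.07 CPM with KPT-330. KDF1, a regulator of keratinocyte growth, was at 0.0205, 0.122 and 0.0485 CPM and then at 1.31, 1.52 and 1.40 CPM. All 3 KPT-330 libraries exceeded every DMSO library for each, as the rule requires. In KPT-330+CS against CS, the log2 fold change was 3.65 for NGB, 2.86 for ACTG2, 2.88 for APOB and 1.39 for KDF1, each with an adjusted p under 0.05. SFRP5, a secreted inhibitor of Wnt ligands, was at 0.123, 0.0245 and 0.145 CPM with DMSO and 1.28, 1.21 and 0.927 CPM with KPT-330, and its log2 fold change in the other 6 libraries was 3.76. SARDH (a mitochondrial enzyme that breaks down sarcosine), DPYSL4 (of a family that acts on the axon cytoskeleton) and EBF4 (a relative of the B cell factor EBF1) had means of 1.15, 1.10 and 1.05 CPM with KPT-330 and under 0.1 CPM with DMSO, and each was also higher in KPT-330+CS against CS. LCN10 did not pass there (log2 fold change 1.23, adjusted p = 0.0552); it overlaps LCN6 on the same strand, and their reads cannot be told apart.

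Some of the 79 were neighbours within 200000 bases, and these pairs are named after their values were seen: GPR56 with GPR97, C1orf106 with CACNA1S, FAM225A with FAM225B, and the overlapping LCN10 with LCN6. IGKV1-13, an immunoglobulin kappa segment, met the rule through 2 libraries only. Its counts were 3, 3 and 2 with DMSO and 2567, 8 and 2724 with KPT-330, but also 5, 2257 and 9 with CS and 5, 6 and 3 with KPT-330+CS. The high counts do not follow the treatment; the segment is counted among the 79 and not described further.

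**Figure D2:**
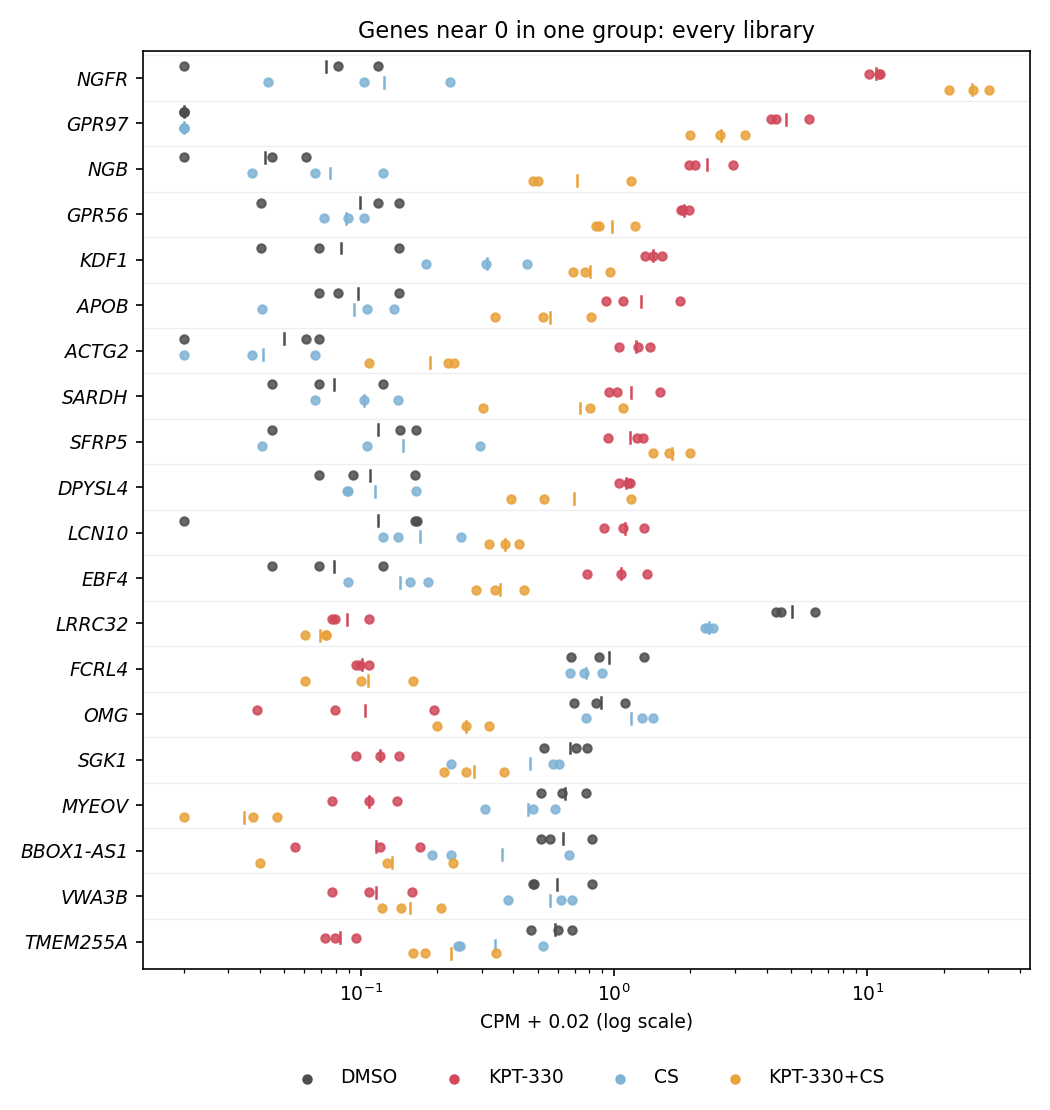
Level of the 12 named genes switched on and the 8 genes of the mirror rule in every library (horizontal axis, CPM plus 0.02 on a log scale; points are libraries, short bars group means). KPT-330 libraries lie far right of DMSO for the upper 12 and far left for the lower 8 by construction; KPT-330+CS lies right of CS for all of the upper 12, though nearer to it for LCN10, EBF4 and KDF1.

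Of the 8 genes that fell below 0.1 CPM, several are of B cells or of signalling. FCRL4 is an inhibitory Fc receptor-like protein of tissue memory B cells; it had 63, 35 and 27 reads with DMSO and 4, 4 and 5 with KPT-330, an 11.8-fold lower level (exact 95% counting interval 6.64 to 22.7). SGK1, a kinase activated through PI3K, had 37, 28 and 21 reads against 4, 5 and 7. MYEOV, which lies near CCND1 on chromosome 11, had 24, 31 and 25 reads against 3, 6 and 5, and OMG, a myelin glycoprotein, 33, 34 and 45 against 1, 3 and 10. LRRC32, which holds latent TGF-beta on the cell surface, went from 6.20, 4.35 and 4.56 CPM to 0.0571, 0.0594 and 0.0875 CPM. VWA3B, TMEM255A and the antisense RNA BBOX1-AS1 complete the set. In KPT-330+CS against CS, where 21.7% of genes were lower, 5 of the 8 were lower (LRRC32, FCRL4, OMG, MYEOV and VWA3B); SGK1, BBOX1-AS1 and TMEM255A were not called, with log2 fold changes of -0.82, -1.47 and -0.57.

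The largest changes among genes with at least 5 CPM in the higher group included 4 increases outside the switched-on set. SLITRK6, a neuronal and inner ear membrane protein that is also an antibody target in bladder cancer, was at 0.739, 0.660 and 0.921 CPM with DMSO and 8.55, 7.43 and 7.47 CPM with KPT-330 (log2 fold change 3.33 ± 0.17, SE). KCNC2, a voltage-gated potassium channel, rose from 2.09, 2.25 and 2.21 to 21.9, 21.0 and 21.1 CPM (3.29 ± 0.10; adjusted p = 1.66e-10). PPDPF and SH3D21 rose with log2 fold changes of 3.28 ± 0.30 and 3.20 ± 0.22. No KPT-330 library overlapped DMSO for any of them, which held for 57.7% of all tested genes. The same 4 were higher in KPT-330+CS against CS, where KCNC2 had 2.61 but SLITRK6 had 0.52.

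At the other end, FCRL2, another Fc receptor-like protein of B cells, fell from 72.1, 75.4 and 77.2 CPM to 15.1, 16.8 and 16.9 CPM, a log2 fold change of -2.20 ± 0.08 (adjusted p = 4.52e-10). OAS1, an interferon-induced sensor of double-stranded RNA, fell from 70.2, 66.4 and 66.2 to 17.4, 15.8 and 16.2 CPM (-2.04 ± 0.06). DUSP5, a phosphatase that the ERK pathway induces against itself, fell from 13.5, 14.8 and 13.7 to 3.58, 3.39 and 3.60 CPM (-1.99 ± 0.10). EGR1, an immediate-early factor of the same pathway, fell from 5.83, 5.99 and 6.50 to 1.94, 1.76 and 1.36 CPM (-1.85 ± 0.15). All 4 were lower with CS in the medium too, FCRL2 and EGR1 by log2 fold changes of -2.61 and -2.36, and OAS1 and DUSP5 by -0.47 and -0.80.

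Called genes were also ranked by the difference in mean CPM rather than by fold, passing over mitochondrial genes and other classes named in the processing section. In that ranking, the 8 largest gains were XPO1, ODC1, LRMP, CD74, PDCD4, STARD7, MALAT1 and MS4A1. ODC1, the first enzyme of polyamine synthesis, gained most of these after XPO1, from 1038, 1113 and 1159 CPM to 1713, 1718 and 1713 CPM (log2 fold change 0.64 ± 0.06). LRMP, a membrane protein of the endoplasmic reticulum that is high in germinal centre B cells, went from 511, 582 and 631 to 1053, 1062 and 1052 CPM (0.88 ± 0.08). PDCD4, a tumour suppressor that blocks the helicase eIF4A, went from 578, 645 and 699 to 932, 952 and 939 CPM (0.56 ± 0.07). MALAT1, a long noncoding RNA kept in nuclear speckles, rose from 183, 208 and 228 to 482, 484 and 473 CPM (1.22 ± 0.09), and was also higher in KPT-330+CS against CS (1.76). STARD7, a carrier of phosphatidylcholine to mitochondria, had 0.69 ± 0.07. CD74 and MS4A1 had 0.78 ± 0.16 and 0.31 ± 0.08; the CD74 call was lost when DMSO replicate 1 was the sole DMSO library (log2 fold change 0.47, adjusted p = 0.143).

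The 8 largest losses in the same ranking were HSPA8, EEF1A1, HNRNPA2B1, HSP90AB1, LDHA, RPS3, HNRNPA1 and NCL, messages for chaperones, translation, RNA binding and lactate production. HSPA8, a constitutive heat shock chaperone, fell from 3456, 3793 and 4130 CPM to 1620, 1583 and 1609 CPM (log2 fold change -1.24 ± 0.07; adjusted p = 3.51e-08). LDHA, which turns pyruvate into lactate, fell from 2740, 3004 and 3245 to 1866, 1884 and 1836 CPM (-0.69 ± 0.07). HNRNPA1 and HNRNPA2B1, splicing and RNA transport proteins, fell by 0.71 and 0.52 on the log2 scale, and nucleolin (NCL) by 0.45. HNRNPA2B1 overlaps CBX3. The translation factor EEF1A1 and the ribosomal protein RPS3 fell by 0.50 and 0.33, and HSP90AB1 by 0.37. In KPT-330+CS against CS, 6 of the 8 were lower and EEF1A1 and RPS3 were not called (log2 fold changes -0.15 and -0.13, adjusted p = 0.0621 and 0.0706).

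**Figure D3:**
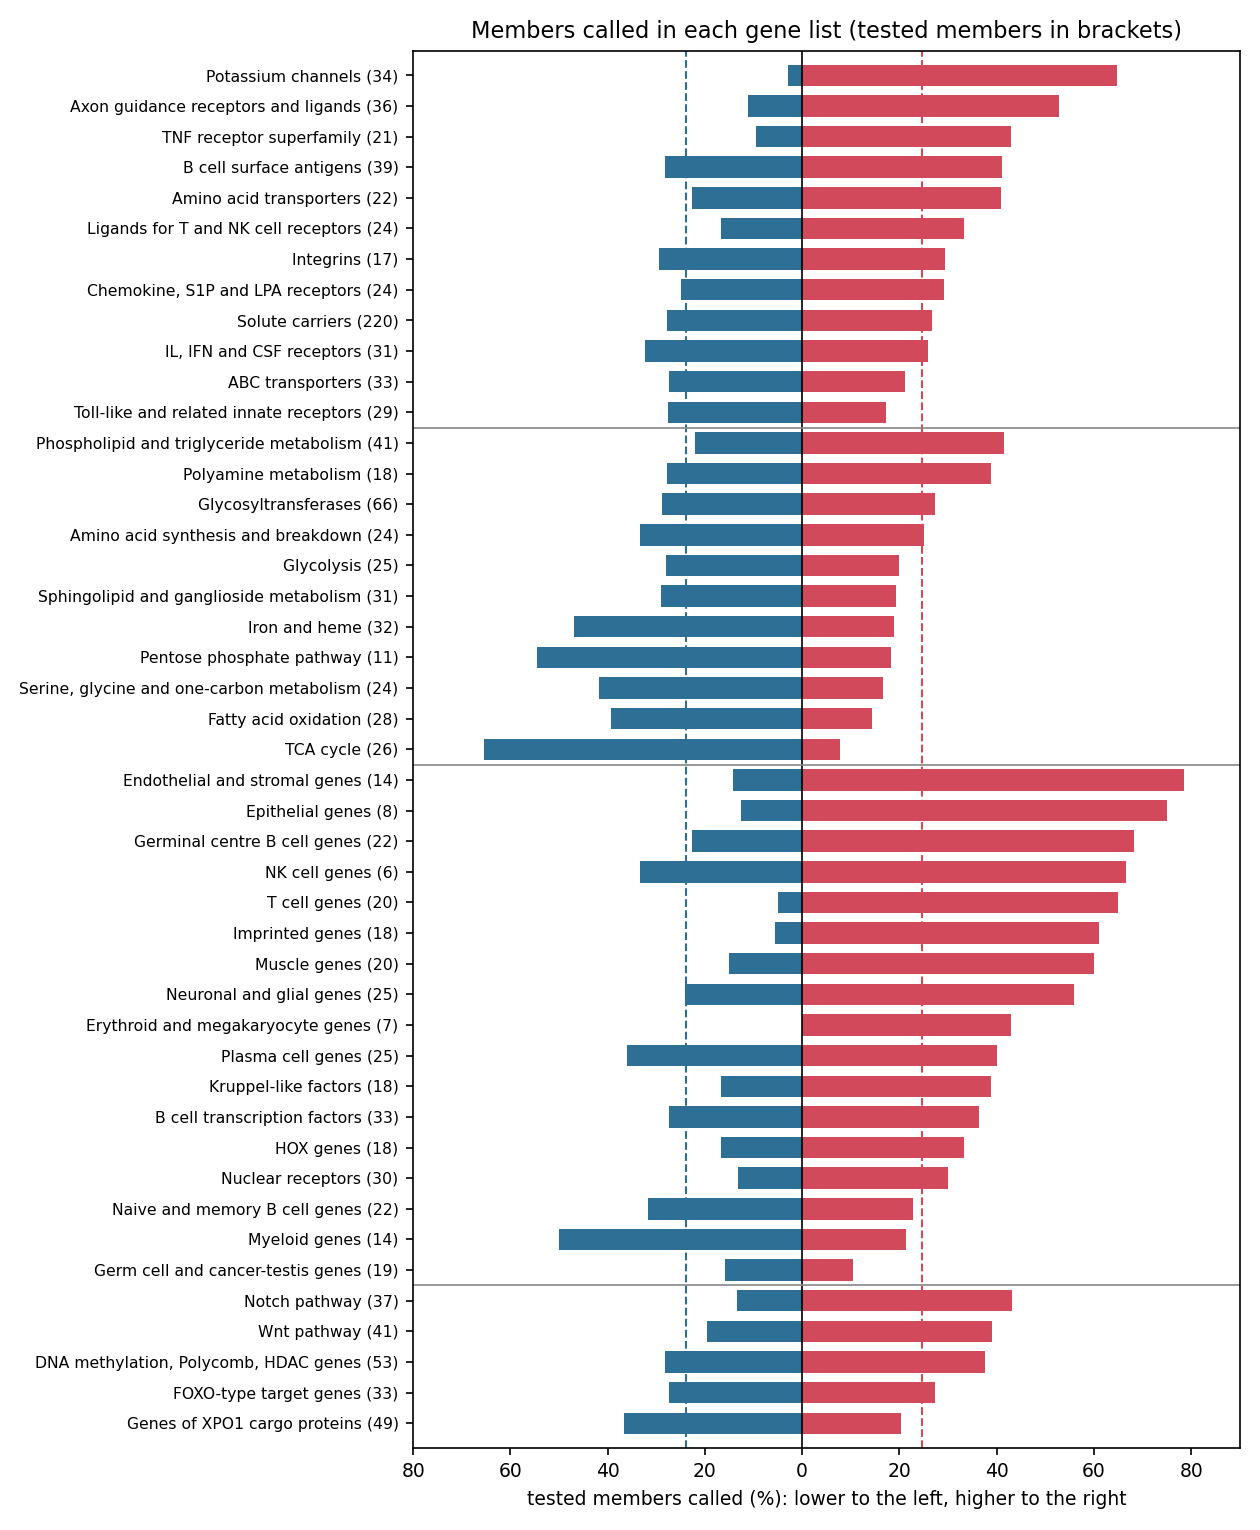
Share of the tested members of 45 gene lists called higher (right, red) or lower (left, blue) with KPT-330 against DMSO, in % of tested members, grouped from top to bottom as surface, metabolic, lineage and regulator lists. Dashed lines mark the shares over all tested genes, 24.7% higher and 23.8% lower; endothelial and stromal genes extend furthest right and the TCA cycle furthest left. Clustered protocadherins, whose gamma genes share reads, are left out.

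Surface proteins of B cells changed in both directions. Here and in what follows, the levels of 3 DMSO and then 3 KPT-330 libraries are followed in brackets by the log2 fold change ± SE, and a gene is called higher or lower at an adjusted p of 0.05 or less. Of 39 tested B cell surface antigens, 16 were higher and 11 lower (41.0% and 28.2%, against 24.7% and 23.8% of all genes), with a median log2 fold change of 0.22. CD22, an inhibitory lectin and an antibody target, rose from 15.0, 13.8 and 13.3 to 44.8, 43.9 and 45.4 CPM (1.67 ± 0.07). SLAMF6, a receptor that binds its own kind on lymphocytes, rose from 0.719, 0.538 and 0.752 to 3.22, 3.31 and 2.83 CPM (2.21 ± 0.20). FCRL3 fell as FCRL2 and FCRL4 did, from 4.62, 4.62 and 4.20 to 1.41, 1.41 and 1.52 CPM (-1.63 ± 0.14). CD52, the target of alemtuzumab, was at 109, 112 and 110 CPM and then at 108, 103 and 107 CPM, a log2 fold change of -0.06 ± 0.07 that did not pass the test. In KPT-330+CS against CS the same list had 11 higher and 17 lower, with a median of -0.29, and the difference between the 2 comparisons was not tested for the list.

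Receptors of the TNF family were higher more often than lower. Of 21 tested members of the TNF receptor superfamily, 9 were higher and 2 lower (42.9% and 9.52%), with a median log2 fold change of 0.27. With correction for GC content these counts were 7 and 5. The median member lay at 3.02 CPM in DMSO, and of all genes at 1 to 10 CPM, 33.6% were higher and 15.4% lower. TNFRSF13C, the BAFF receptor, was at 3.63, 3.55 and 3.61 CPM with DMSO and at 8.77, 9.33 and 8.03 CPM with KPT-330 (1.27 ± 0.11; adjusted p = 9.17e-07). TNFRSF17, known as BCMA and used as a target in myeloma, was at 18.7, 20.6 and 21.8 and 42.4, 40.4 and 39.7 CPM (1.00 ± 0.09). Neither overlapped between the groups, and both were higher in the other 6 libraries, by 0.71 and 0.76 on the log2 scale. Among 24 tested ligands for T and NK cell receptors, 8 were higher and 4 lower (33.3% and 16.7%), or 12 and 2 with library size alone. Their median member lay at 2.87 CPM in DMSO, and their shares were close to those of all genes at 1 to 10 CPM. CD86, the ligand of CD28 and CTLA4, fell from 94.1, 105 and 112 to 49.4, 47.2 and 49.5 CPM (-1.09 ± 0.08), while ULBP1, a ligand of the NK receptor NKG2D, rose from 0.554, 0.611 and 0.582 to 1.48, 1.68 and 1.24 CPM (1.33 ± 0.16) and CD276 from 0.472, 0.391 and 0.703 to 1.52, 1.31 and 1.14 CPM (1.34 ± 0.25). CD86 was not lower in KPT-330+CS against CS (-0.12; adjusted p = 0.252).

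Chemoattractant receptors changed in both directions. Of 24 tested chemokine, S1P and LPA receptors, 7 were higher and 6 lower. CCR9, a gut homing receptor, went from 0.205, 0.0734 and 0.242 to 2.36, 2.48 and 2.26 CPM (3.73 ± 0.27), and ACKR4, a scavenger of CCL19 and CCL21, from 0.411, 0.440 and 0.291 to 4.42, 3.70 and 3.92 CPM (3.39 ± 0.18). CCR9 overlaps LZTFL1 and ACKR4 overlaps ACAD11, so their reads cannot be fully separated. GPR183, an oxysterol receptor that guides B cell migration, fell from 128, 139 and 158 to 64.0, 62.6 and 62.8 CPM (-1.16 ± 0.08). PTAFR, the receptor of platelet-activating factor, fell from 3.43, 4.18 and 2.96 to 1.43, 1.54 and 1.77 CPM (-1.15 ± 0.18). CCR2 was at 27.2, 31.2 and 34.4 CPM with DMSO and 32.1, 31.8 and 32.1 CPM with KPT-330, with overlapping libraries (0.05 ± 0.08).

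Cytokine and innate receptors were called in shares near those of all genes. Of 31 tested interleukin, interferon and colony-stimulating factor receptors, 8 were higher and 10 lower (median -0.16), and of 29 Toll-like and related receptors, 5 were higher and 8 lower (median -0.10), or 8 and 9 with GC correction and 8 and 7 with library size alone. IL10RA, the ligand-binding chain of the IL-10 receptor, fell from 58.3, 52.2 and 44.9 to 21.4, 19.5 and 22.0 CPM (-1.30 ± 0.12), and IL2RA, the alpha chain of the IL-2 receptor, from 6.28, 6.87 and 6.64 to 1.79, 2.02 and 2.90 CPM (-1.55 ± 0.16). IL17RD, a membrane brake on fibroblast growth factor signalling, rose from 0.472, 0.440 and 0.218 to 1.56, 1.33 and 1.36 CPM (1.89 ± 0.27). Of the innate sensors, TLR4 fell from 28.3 ± 4.98 to 10.8 ± 0.430 CPM (mean ± SD, n = 3; -1.40 ± 0.11), TLR6 from 48.4, 50.7 and 53.9 to 19.8, 19.4 and 19.9 CPM (-1.37 ± 0.08) and NLRP3, a sensor of the inflammasome, from 12.2, 12.7 and 10.9 to 4.45, 3.64 and 4.36 CPM (-1.52 ± 0.11). TLR7, the sensor of single-stranded RNA, was at 57.8, 65.1 and 67.0 CPM and 58.4, 62.5 and 58.6 CPM and was not called (-0.08 ± 0.07). Of 17 tested integrins, 5 were higher and 5 lower (median 0.16), or 2 and 4 of 10 with the stricter filter. ITGB1, the common beta chain of collagen and fibronectin receptors, fell from 222, 254 and 281 to 167, 168 and 167 CPM (-0.59 ± 0.08), and ITGAE from 43.8, 48.1 and 48.0 to 28.8, 30.8 and 30.1 CPM (-0.64 ± 0.06). All of the called genes in this group but ITGB1 were called the same way in KPT-330+CS against CS. TLR6 overlaps TLR1 and ITGAE overlaps GSG2.

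Among membrane proteins known mainly from neurons, potassium channels and axon guidance genes were higher more often than lower. Their median members lay at 1.71 and 1.79 CPM in DMSO. Of all genes at 1 to 10 CPM, 33.6% were higher and 15.4% lower. Of 34 tested potassium channels, 22 were higher and 1 lower (64.7% and 2.94%, median 0.78; 19 and 3 with GC correction), and 12 of the 34 had less than 1 CPM in DMSO. The 1 that fell was KCNN3, a calcium-activated channel, which went from 63.9, 63.7 and 69.7 to 28.0, 30.7 and 29.3 CPM (-1.17 ± 0.06). Of 36 tested axon guidance receptors and ligands, 19 were higher and 4 lower (median 0.69), or 12 and 6 with correction for GC content. EPHA10, an ephrin receptor, rose from 0.411, 0.489 and 0.509 to 2.47, 3.15 and 3.15 CPM (2.64 ± 0.19), and the netrin-like NTNG2 from 0.801, 0.660 and 0.655 to 2.84, 2.59 and 2.59 CPM (1.91 ± 0.18). SEMA7A, a semaphorin that binds integrins, fell from 4.44, 3.82 and 3.42 to 1.16, 1.41 and 1.08 CPM (-1.68 ± 0.18) and fell more with CS present (-3.95). With CS in both groups, 14 potassium channels were higher and 5 lower, and 14 axon guidance genes were higher and 4 lower. The 24 tested clustered protocadherins gave 1 higher and 22 lower, but the 22 gamma genes share their last exons and had almost the same counts (median 719 reads per gene in DMSO replicate 1 and 477 in KPT-330 replicate 1), so they are close to a single measurement.

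**Figure D4:**
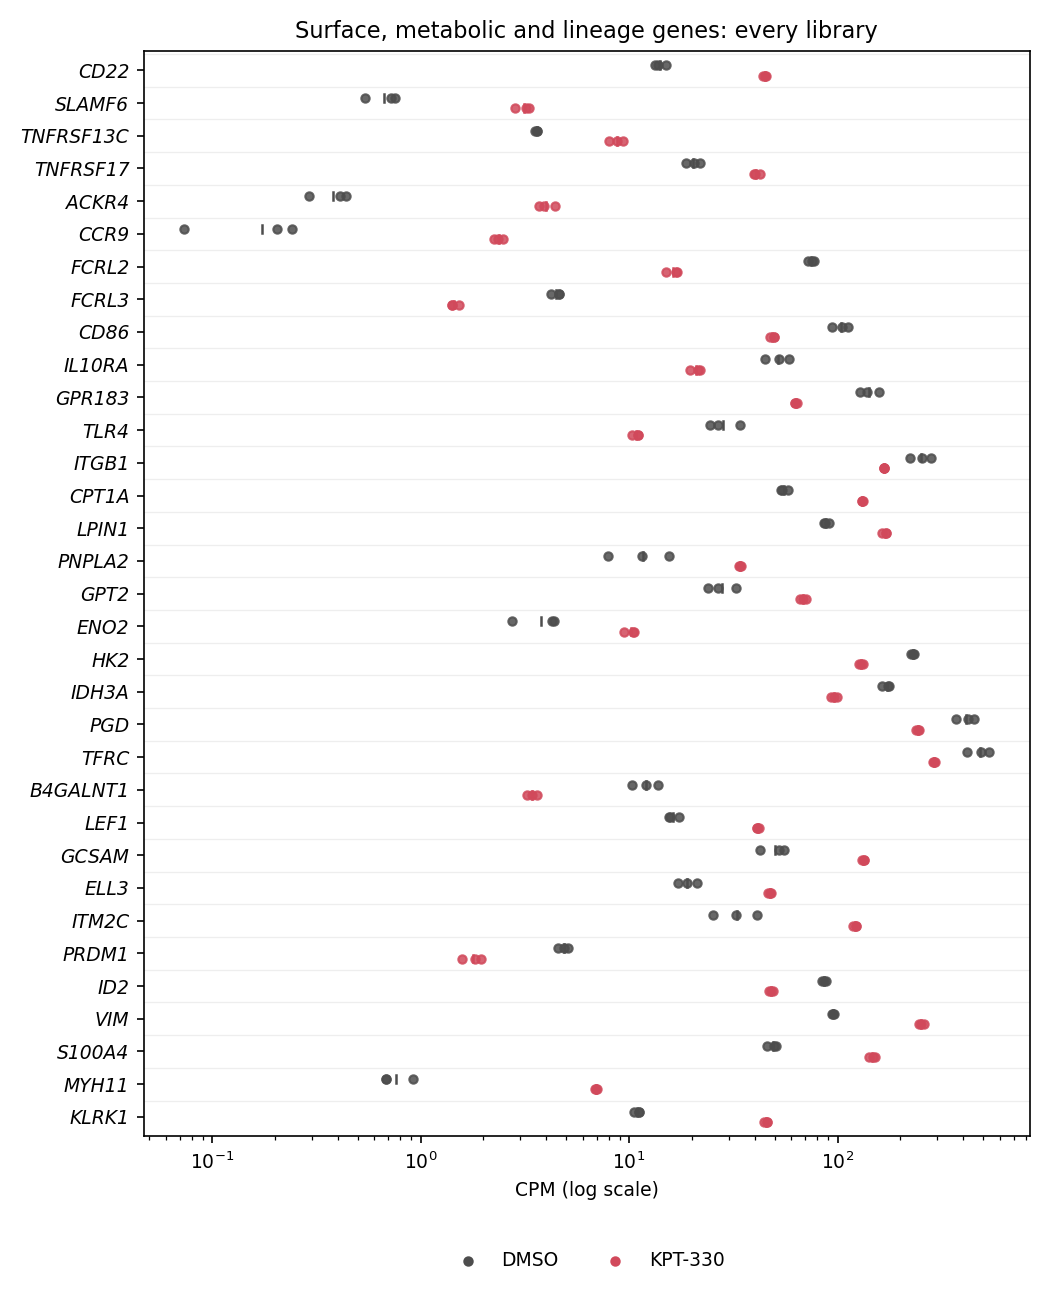
Level of 33 named surface, metabolic and lineage genes in each library (horizontal axis, CPM on a log scale; points are libraries, short bars group means; DMSO grey, KPT-330 red). The groups do not overlap for any gene shown, which were chosen from those called.

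TCA cycle genes were mostly lower, and glycolysis genes changed in both directions. Of 26 tested TCA cycle genes, 2 were higher and 17 lower (65.4%, median -0.25), beside 61.7% lower among all genes over 100 CPM, the level class in which the median member lay (142 CPM). IDH3A, the catalytic subunit of the NAD-linked isocitrate dehydrogenase, fell from 164, 175 and 177 to 99.6, 93.4 and 95.7 CPM (-0.84 ± 0.05; adjusted p = 3.89e-08). SDHD, a membrane anchor of succinate dehydrogenase, fell from 335, 347 and 352 to 235, 222 and 235 CPM (-0.58 ± 0.05). The list also holds IDH1, the cytosolic NADP-linked enzyme, which is not an enzyme of the cycle itself. IDH1 fell from 104, 109 and 110 to 64.5, 68.5 and 68.4 CPM (-0.68 ± 0.05). With library size alone, 3 TCA cycle genes were higher and 10 lower. Of the TCA cycle genes, with CS in both groups, 0 were higher and 15 lower. Of 25 tested glycolysis genes, 5 were higher and 7 lower. HK2, the inducible hexokinase, fell from 233, 229 and 226 to 132, 127 and 130 CPM (-0.82 ± 0.05), while the neuronal enolase ENO2 rose from 4.29, 4.35 and 2.74 to 10.6, 9.41 and 10.5 CPM (1.42 ± 0.18) and the glucose transporter SLC2A3 from 0.965, 1.22 and 1.02 to 2.72, 2.42 and 2.12 CPM (1.18 ± 0.14). GAPDH was at 3647, 3038 and 2399 CPM with DMSO and 2959, 2780 and 2919 CPM with KPT-330, within the spread of DMSO (-0.07 ± 0.14). After GC correction 5 glycolysis genes were higher and 14 lower. In the pentose phosphate pathway, 2 of 11 genes were higher and 6 lower (2 and 3 with library size alone), PGD, its second NADPH-producing enzyme, from 453, 423 and 369 to 247, 239 and 244 CPM (-0.77 ± 0.08).

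Genes of lipid use changed in both directions. Of 28 tested fatty acid oxidation genes, 4 were higher and 11 lower, or 10 and 10 with library size alone and 7 and 10 with GC correction. CPT1A, the gate for entry of long-chain fatty acids into mitochondria, was at 53.7, 58.1 and 53.9 CPM with DMSO and at 131, 133 and 131 CPM with KPT-330 (1.26 ± 0.05; adjusted p = 1.01e-09). SLC25A20, the carrier that takes the acyl-carnitine made by CPT1A across the inner membrane, went the other way, from 25.5, 25.6 and 27.5 to 13.3, 13.8 and 14.7 CPM (-0.91 ± 0.07), and so did ACSL1, which activates long-chain fatty acids (-0.69 ± 0.05). Of 41 tested phospholipid and triglyceride genes, 17 were higher and 9 lower (median 0.30). LPIN1, a phosphatidate phosphatase, rose from 87.5, 90.6 and 85.8 to 171, 171 and 163 CPM (0.94 ± 0.05), and PNPLA2, the first lipase of stored triglyceride, from 15.6, 11.5 and 7.93 to 33.5, 33.9 and 34.3 CPM (1.53 ± 0.23). GPAM, which starts glycerolipid synthesis, fell from 45.2, 50.7 and 54.6 to 29.0, 28.8 and 27.1 CPM (-0.83 ± 0.07). All 6 of these were called in the same direction in KPT-330+CS against CS. Of 31 sphingolipid and ganglioside genes, 6 were higher and 9 lower (10 and 7 with library size alone). B4GALNT1, the GM2 and GD2 ganglioside synthase, fell from 13.8, 12.1 and 10.3 to 3.43, 3.23 and 3.62 CPM (-1.82 ± 0.14) and by 2.20 on the log2 scale with CS present.

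Among amino acid, polyamine and iron genes, lower calls outnumbered higher ones for iron genes, while for one-carbon genes that depended on the scaling. Their median members lay at 37.0 and 64.5 CPM in DMSO. Of all genes at 10 to 100 CPM, 32.6% were lower and 21.6% higher. Of 24 tested serine, glycine and one-carbon genes, 4 were higher and 10 lower, but 8 and 4 with library size alone and 7 and 8 with GC correction; MTHFD2, the mitochondrial folate enzyme of dividing cells, fell from 249, 266 and 285 to 184, 181 and 180 CPM (-0.55 ± 0.06), and PSPH, the last enzyme of serine synthesis, rose from 32.9, 32.4 and 32.4 to 44.6, 45.4 and 45.2 CPM (0.47 ± 0.06). Of 24 genes of amino acid synthesis and breakdown, 6 were higher and 8 lower (7 and 5 with library size alone). GPT2, the mitochondrial alanine transaminase, rose from 32.7, 26.7 and 24.0 to 68.1, 66.3 and 70.9 CPM (1.30 ± 0.12), and ASS1, which makes argininosuccinate, from 0.472, 0.709 and 0.533 to 2.02, 1.49 and 2.12 CPM (1.72 ± 0.22). Of 18 polyamine genes, 7 were higher and 5 lower (9 and 3 with library size alone). ODC1 rose, as given above, while AMD1, which supplies the aminopropyl group for the next steps, fell from 181, 201 and 223 to 125, 124 and 129 CPM (-0.68 ± 0.08). Both changes were also called with CS present. Of 32 tested iron and heme genes, 6 were higher and 15 lower (46.9%, median -0.18), or 3 and 15 with GC correction. TFRC, the transferrin receptor, fell from 420, 487 and 536 to 289, 293 and 288 CPM (-0.73 ± 0.08). HMOX1, which breaks down heme, fell from 1.60, 0.929 and 0.849 to 0.247, 0.158 and 0.315 CPM (-2.22 ± 0.36), and BLVRA, the next enzyme of that pathway, rose from 1.62, 1.42 and 1.26 to 3.90, 3.80 and 4.32 CPM (1.48 ± 0.14). Of 220 tested solute carriers, 59 were higher and 61 lower, shares close to those of all genes, and 85 and 40 with library size alone. The largest rise among them at 1 CPM or more was SLC16A14, an orphan monocarboxylate carrier with 2, 0 and 2 reads in DMSO and 38, 53 and 78 with KPT-330, which met the switched-on rule; it had no read in the CS libraries and 0.543, 0.827 and 0.654 CPM with KPT-330+CS.

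Within the B lineage, genes of the germinal centre were mostly higher. Of 22 tested germinal centre genes, 15 were higher and 5 lower (68.2% and 22.7%, median 0.57; 16 and 3 with library size alone), and the summed level of the list was 1506 to 1690 CPM with DMSO and 2408 to 2425 CPM with KPT-330. The median member lay at 29.9 CPM in DMSO, and of all genes at 10 to 100 CPM, 21.6% were higher and 32.6% lower. Members that went down include LMO2, with 262, 215 and 198 reads with DMSO and 133, 120 and 128 with KPT-330. MME had 2625, 2619 and 2826 reads and then 2088, 2163 and 2242. LRMP, given above, belongs to the same list. GCSAM, a germinal centre signalling protein, rose from 42.6, 52.2 and 55.5 to 134, 134 and 131 CPM (1.41 ± 0.08; adjusted p = 2.67e-08), and ELL3, an elongation factor, from 17.1, 18.9 and 21.2 to 47.7, 48.2 and 46.4 CPM (1.32 ± 0.07), although ELL3 overlaps other genes. BCL6, the master factor of that stage, was at 2.03, 1.81 and 2.26 CPM with DMSO and 1.90, 1.70 and 1.54 CPM with KPT-330 and was not called (-0.25 ± 0.20). With CS in both groups, 10 of the 22 were higher and 3 lower. Of 25 plasma cell genes, 10 were higher and 9 lower: PRDM1, the factor that drives plasma cell fate, fell from 4.56, 4.89 and 5.09 to 1.94, 1.58 and 1.82 CPM (-1.44 ± 0.15), ITM2C rose from 41.1, 32.7 and 25.3 to 123, 119 and 123 CPM (1.88 ± 0.17), and IRF4 was not called (91.8, 95.4 and 100 and 102, 103 and 106 CPM; 0.11 ± 0.05). Of 33 B cell transcription factors, 12 were higher and 9 lower (16 and 4 with library size alone); LEF1, a Wnt-responsive factor of B cell precursors and leukaemic B cells, rose from 15.5, 17.3 and 15.8 to 41.9, 40.9 and 41.3 CPM (1.35 ± 0.08), and ID2, an inhibitor of E proteins, fell from 88.5, 86.4 and 84.2 to 48.2, 48.8 and 46.7 CPM (-0.85 ± 0.05). Of 22 naive and memory B cell genes, 5 were higher and 7 lower (median -0.01), or 5 and 12 with GC correction and 6 and 3 with library size alone, and with CS in both groups 4 were higher and 14 lower. FAIM3, the Fc receptor for IgM and a member of that list, rose from 21.0, 21.6 and 21.5 to 68.9, 63.5 and 68.4 CPM (1.65 ± 0.06), and moved the other way in KPT-330+CS against CS (-0.46; adjusted p = 2.16e-05).

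Genes of other blood and tissue lineages were higher more often than lower, except for the myeloid list and the germ cell list given further on. Among all genes, 23.7% at 0.1 to 1 CPM and 33.6% at 1 to 10 CPM in DMSO were higher, and 63.0% below 0.1 CPM, where the filter fixes part of the direction. In that lowest class lay 4 of the tested muscle genes and 2 endothelial and stromal genes, all of them called higher. The 1 gene there of each of the T cell, epithelial, neuronal, plasma cell, and erythroid and megakaryocyte lists was also higher. The class also held 3 germ cell and cancer-testis genes, of which 0 were called higher, and 3 nuclear receptor genes, of which 1 was. Of 20 tested T cell genes, 13 were higher and 1 lower (65.0%, median 0.90, or 0.58 with GC correction), and 11 of them had under 1 CPM in DMSO; the summed level was 125 to 188 CPM with DMSO and 229 to 238 CPM with KPT-330. CD3E had 14, 8 and 20 reads with DMSO and 50, 41 and 45 with KPT-330, while TRAT1, THEMIS, EOMES and IL2 had none in the 6 libraries. LCK, a kinase of T cells that mantle cell lymphoma can also express, rose from 4.62, 3.01 and 3.01 to 10.1, 10.8 and 10.5 CPM (1.55 ± 0.16), and CD8A from 0.267, 0.196 and 0.218 to 0.971, 1.33 and 0.962 CPM (2.23 ± 0.34). Only 6 NK cell genes could be tested, of which 4 were higher and 2 lower (2 and 2 with GC correction); KLRK1, the receptor NKG2D, rose from 10.6, 11.1 and 11.2 to 45.8, 46.1 and 44.6 CPM (2.06 ± 0.06). The reads of KLRK1 are shared with the read-through gene KLRC4-KLRK1. Myeloid genes leaned the other way, with 3 of 14 higher and 7 lower (median -0.37; 1 and 8 with GC correction): lysozyme (LYZ) fell from 2.85, 1.66 and 1.79 to 0.818, 0.654 and 0.665 CPM (-1.57 ± 0.24), and MPO, ELANE, S100A8 and S100A9 had no read.

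Outside the blood, 12 of 20 tested muscle genes were higher and 3 lower (median 1.09), 13 of the 20 being under 1 CPM in DMSO, 11 of 14 endothelial and stromal genes were higher and 2 lower (median 0.97), 6 of 8 epithelial genes were higher and 1 lower (median 1.80), and 14 of 25 neuronal and glial genes were higher and 6 lower (median 0.83). With the stricter filter, 8 of 12 muscle genes were higher and 2 lower (median 0.43), and 4 of 6 epithelial genes were higher and 1 lower (median 1.08). With GC correction the neuronal and glial median was 0.45, and with library size alone 14 muscle genes were higher and 1 lower. Several defining genes of these cell types were not detected: MYOD1, MYOG and DES of muscle, CDH5 and KDR of endothelium, CDH1 and KRT5 of epithelium and SOX2 and SOX10 of the nervous system had no read in any of the 6 libraries. MYH11, the smooth muscle myosin heavy chain, rose from 0.763 ± 0.140 to 6.93 ± 0.0737 CPM (mean ± SD, n = 3; 3.17 ± 0.16, edgeR adjusted p = 9.30e-09); it overlaps NDE1 on the other strand. Vimentin (VIM), an intermediate filament, rose from 94.8 ± 1.04 to 253 ± 7.88 CPM (mean ± SD, n = 3; 1.41 ± 0.04), and S100A4, a calcium-binding protein of motile cells, from 46.0, 49.7 and 50.8 to 148, 142 and 151 CPM (1.59 ± 0.06). EPCAM, an epithelial adhesion protein, rose from 0.513, 0.342 and 0.461 to 1.41, 1.86 and 2.03 CPM (1.99 ± 0.24), and plakoglobin (JUP) from 2.09, 1.66 and 0.994 to 5.82, 6.65 and 6.70 CPM (2.00 ± 0.25). TIE1, an endothelial receptor, rose from 0.595, 0.391 and 0.121 to 2.59, 2.20 and 2.69 CPM (2.71 ± 0.34). SV2A, a synaptic vesicle protein, fell, from 1.42, 1.13 and 0.727 to 0.324, 0.277 and 0.0350 CPM (-2.39 ± 0.43). All 7 of these were called in the same direction in KPT-330+CS against CS, where 11 muscle, 10 endothelial and stromal, 4 epithelial and 10 neuronal and glial genes were higher.

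Regulators of gene expression were mixed. Of 19 tested germ cell and cancer-testis genes, 2 were higher and 3 lower, or 5 and 3 with library size alone and 4 and 7 with GC correction; PRAME (201, 192 and 178 and 179, 173 and 182 CPM) and CTCFL (130, 142 and 139 and 141, 138 and 136 CPM) were present in both groups and not called. Of 18 HOX genes, 6 were higher and 3 lower (7 and 1 with library size alone), with HOXA13 falling from 6.84, 8.05 and 8.95 to 3.88, 3.62 and 4.04 CPM (-1.04 ± 0.11); it overlaps HOTTIP. Of 53 genes of DNA methylation, Polycomb and histone deacetylases, 20 were higher and 15 lower (median 0.04), or 24 and 3 with library size alone; DNMT1, the maintenance methyltransferase, was not called (403, 376 and 332 and 347, 343 and 349 CPM; -0.10 ± 0.08). Of 49 genes whose proteins are XPO1 cargo, 10 were higher and 18 lower (median -0.10), or 17 and 11 with library size alone. TP73, a relative of p53, rose from 1.91, 1.74 and 1.09 to 5.69, 6.10 and 5.39 CPM (1.85 ± 0.23), and NFATC1, a calcium-regulated factor, from 17.1, 15.9 and 14.5 to 36.9, 37.3 and 39.8 CPM (1.26 ± 0.09); TP73 overlaps TP73-AS1. Neither was called in KPT-330+CS against CS (-0.11 and 0.12). Of 33 FOXO-type target genes, 9 were higher and 9 lower (17 and 7 with library size alone): BBC3, the cell death inducer PUMA, rose from 0.637, 0.489 and 0.412 to 2.61, 2.55 and 2.80 CPM (2.35 ± 0.25), CCNG2 rose from 29.9, 35.5 and 40.4 to 75.6, 78.1 and 74.2 CPM (1.11 ± 0.09), and GABARAPL1, of autophagy, fell from 7.80, 9.27 and 10.0 to 3.54, 4.34 and 3.74 CPM (-1.22 ± 0.12). With CS present, GABARAPL1 rose instead (1.04; adjusted p = 1.06e-05). Of 37 Notch pathway genes, 16 were higher and 5 lower (15 and 10 with GC correction, 22 and 3 with library size alone), and of 41 Wnt pathway genes, 16 were higher and 8 lower (12 and 13 with GC correction, 18 and 5 with library size alone); WNT3 rose from 3.78, 3.62 and 3.59 to 8.51, 10.3 and 9.01 CPM (1.34 ± 0.12), and CTNNB1, which encodes beta-catenin, was not called (228, 250 and 249 and 224, 221 and 222 CPM; -0.12 ± 0.05).

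**Figure D5:**
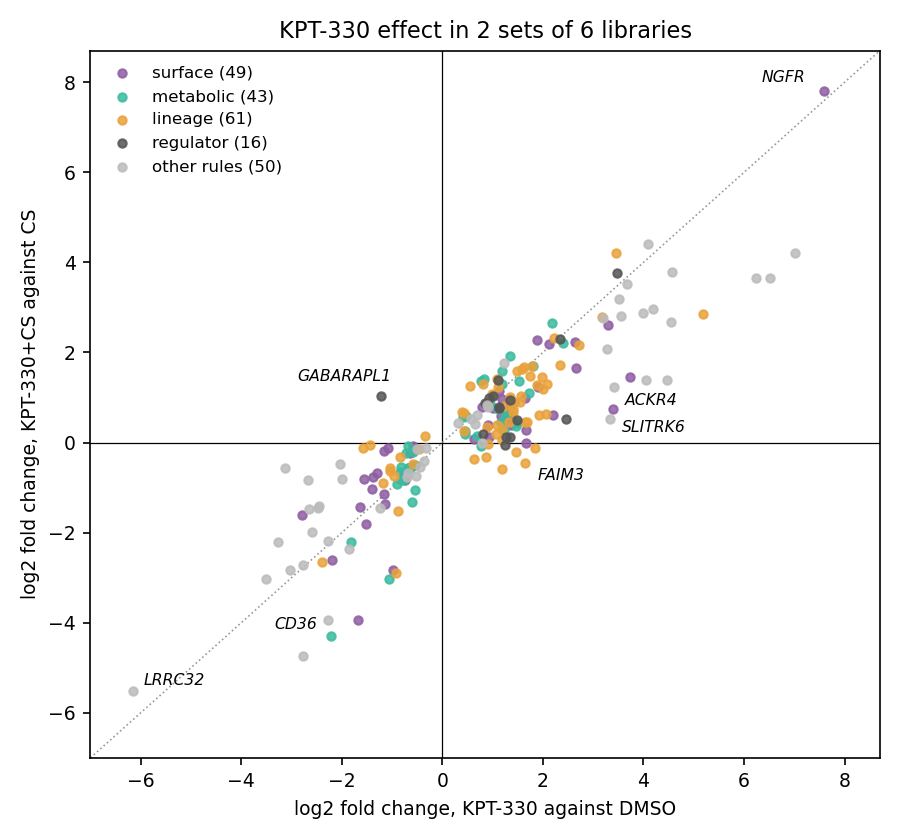
Log2 fold change with KPT-330 against DMSO (horizontal axis) and with KPT-330+CS against CS (vertical axis, 6 other libraries) for the genes taken by the naming rules and called against DMSO; GPR97 and SLC16A14, with no read in a whole group, are left out, and the dotted line marks equal values. 206 of 219 lie on the same side of 0 in both, and FAIM3 and GABARAPL1 are among the 13 that do not.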

How the data were processed

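RNA of 12 JEKO-1 samples (4 groups of 3) was poly(A) selected and sequenced with a kit that does not mark strand, per the labels' protocols. The authors deposited raw read counts per gene, made from STAR alignments to hg38 with Ensembl 78 genes, per the series' design text and the submitters' processing notes; which program counted the reads, and with which strand setting, is not given in the sources used here. Reads of overlapping genes therefore cannot be told apart.

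Counts were tested with edgeR 4.0.16 (R 4.3.3): genes with low counts were removed by filterByExpr, libraries were scaled with TMM, and 1 robust quasi-likelihood fit on group held all 12 libraries. P-values were adjusted by Benjamini-Hochberg over 19460 genes, and a gene was called at 0.05 or less; errors of log2 fold changes are SE. CPM used the scaled library sizes. Ratios of reads carry exact 95% intervals that cover counting error only.

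The comparison, the 46 gene lists and the rules were chosen with earlier results of these data known. Named genes were the 12 largest increases and 12 largest decreases by log2 fold change at 5 CPM or more in the higher group without overlap of libraries, the 12 highest switched-on genes and the 8 of the mirror rule, the 8 largest gains and losses in CPM, up to 4 called members (at least 1 CPM) and 2 members not called of each list, and XPO1; clone-based names and receptor segments were passed over. Mitochondrial genes, HIST genes, pseudogenes and names that begin with LINC, MIR, SNOR, RNU or RN7 were passed over too in the rankings. The text gives a part of these genes, and leaves out further members of the same rules. CD3E, LMO2, MME and the members without reads were named outside the rules, after their values were seen. Promoters came from RefSeq (GRCh38.p14) and were matched by symbol.

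The test was tried on simulated counts of 19034 genes for KPT-330 against DMSO: it called 58.2% of genes altered 1.5-fold, 85.1% of those altered 2-fold, 100% of those altered 4-fold and 7 unaltered genes. Altered genes were drawn from those with a mean over 1 CPM, so these shares do not cover near-silent genes. Each simulated gene had the same spread in every group, whereas the spread within KPT-330 and within DMSO differed. Alternatives were no filter and a stricter one, other scalings, DESeq2 1.42.0, a likelihood ratio test, a replicate block, GC correction, the compared groups alone and leaving out each replicate.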

Additional observations from a re-analysis of the deposited data

Results flagged for a closer look

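The effect of KPT-330 differed between cultures with and without CS for 43 of the 116 called genes named, by edgeR's interaction test at an adjusted p of 0.05 or less over all genes, beside 14.7% of all tested genes. These genes were named for their effect in KPT-330 against DMSO, which the interaction subtracts, so their share and the direction of the difference are fixed in part by that choice. Over all genes, GC correction moved the count (5121 genes called, against 2853). The values below are the log2 fold change in KPT-330+CS against CS minus that in KPT-330 against DMSO. The calls themselves were opposite for FAIM3 (-2.11; 1.65 without CS and -0.46 with it, adjusted p of the difference = 2.29e-08) and for GABARAPL1 (2.26; -1.22 and 1.04, adjusted p = 5.27e-06).

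Among surface genes higher with KPT-330 alone, the difference was -1.60 for SLAMF6, -1.40 for CD22, -0.68 for ULBP1, -0.56 for TNFRSF13C, -2.27 for CCR9, -2.63 for ACKR4, -2.81 for SLITRK6, -0.68 for KCNC2 and -1.43 for KLRK1. Among surface genes lower with KPT-330 alone, it was 0.98 for CD86, 0.99 for GPR183, 0.74 for IL2RA, 0.63 for IL10RA, 0.42 for ITGAE, 0.52 for ITGB1, 0.60 for TLR6, -2.27 for SEMA7A and -0.41 for FCRL2. Among metabolic genes it was 0.62 for IDH1, 0.36 for SDHD, -0.65 for CPT1A, -0.64 for GPT2, -1.05 for BLVRA and 0.50 for TFRC. Among genes of B cell identity, regulators and other lineages it was -0.79 for CD74, 1.39 for PRDM1, -0.35 for LEF1, 0.54 for ID2, -0.73 for GCSAM, -0.87 for ELL3, 1.46 for LYZ, -0.52 for VIM, -1.96 for TP73 and -1.14 for NFATC1. For the remaining genes it was 1.57 for OAS1, 1.19 for DUSP5, 0.54 for MALAT1, 0.35 for EEF1A1, -3.08 for KDF1, -2.66 for EBF4 and 2.54 for TMEM255A. The effect was larger with CS present for FCRL2, SEMA7A and MALAT1, and smaller in absolute size for the other 40.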

How the results depend on the processing

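Calls are at an adjusted p of 0.05 or less, by edgeR except in the DESeq2 alternative. Of the 116 called genes named, 114 kept their call and direction under every alternative in which they were tested. Some genes with few reads, such as APOB and SGK1, had a test in 15 of the 16 alternatives. Calls of no change were less stable: of 11 named genes not called, 8 were called under some alternative. Among these, IRF4 was called under 5, CCR2 under 3 and CTCFL under 2. CD74 and BBOX1-AS1 lost their calls with DMSO replicate 1 as the sole DMSO library, where BBOX1-AS1 had a log2 fold change of -2.36. That alternative was chosen after seeing the data, because the GC slope of DMSO replicate 1 is nearest to that of the KPT-330 libraries; its lone sample is assumed to vary like the other groups, and 3009 genes were higher and 2822 lower. Without the filter, 118 genes were lower beyond the study's limit. With the stricter filter (at least 1 CPM in 3 libraries), which tests 14905 genes, 213 were higher and 24 lower beyond the limit, 22 were switched on and 1 met the mirror rule. With library size alone, 2905 genes were lower. GC correction called 5121 genes for the interaction; the cause was not tested.

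Leaving out 1 library at a time gave 3949 to 5361 genes higher and 3863 to 5039 lower, 546 to 742 higher and 71 to 81 lower beyond the limit, 68 to 95 switched on and 4 to 10 under the mirror rule, the 4 without KPT-330 replicate 1. For KPT-330+CS against CS it gave 4309 to 4809 higher and 3607 to 4036 lower. The interaction count of 2853 ranged from 1713 without KPT-330 replicate 3 to 4711 without DMSO replicate 1; it was 1780 without DMSO replicate 2, 1782, 1862 and 1713 without KPT-330 replicates 1, 2 and 3, 1797 and 1859 without CS replicates 2 and 3, and 1873 without KPT-330+CS replicate 2. Of 1472 list counts compared, 153 moved by over 1.5 times.

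Replicate numbers are shared between groups. Deviations of KPT-330 and DMSO libraries of 1 number had correlations of -0.03551, -0.01187 and -0.07004. The KPT-330 libraries varied little (coefficient of variation 2.881%, against 15.47% within DMSO), so these values cannot show whether the numbers pair the samples. With a replicate block, 4416 genes were higher and 4314 lower.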
